A study of Mus musculus with 12 samples.

Results

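The transcripts followed here come from 10 genes whose products are known from Sertoli cells: *Clu*, *Ctsl*, *Wt1*, *Dhh*, *Amh*, *Cst12*, *Aard*, *Fshr*, *Kitl* and *Cldn11*. They were taken by gene symbol from the 21859 genes of the deposited expression table, and all 10 were found. The libraries did not contain sorted Sertoli cells. They were made from GFRa1+/KIT- spermatogonia, undifferentiated germ cells that FACS took from adult GFRa1-EGFP mice by the green signal of the *Gfra1* reporter and the lack of KIT, a marker of differentiation. Both groups carried the reporter, and the labels give the genotype as WT for control and Cryptorchid for the operated side. The 7 cryptorchid libraries came from testes that had been fixed surgically to the abdominal wall 10 days earlier, and the 5 control libraries came from testes in the scrotum, the left testis being moved and the right one kept as the control. The sources do not say which libraries share a mouse or whether mice were pooled, so *P*-values measure only the spread between these libraries, which may be technical. Each library was prepared by Smart-seq2, a full-length cDNA amplification, from the RNA of about 200 cells.

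Sertoli cells are the somatic cells of the seminiferous tubule. They hold the germ cells in pockets of their cytoplasm, form the blood-testis barrier, respond to FSH and testosterone, and release factors such as GDNF and KIT ligand that maintain spermatogonia or drive their differentiation. Because their processes wrap around germ cells, Sertoli cell transcripts are commonly found in germ cell preparations. The comparisons addressed whether Sertoli cell transcripts differed between control and cryptorchid samples, and whether they moved together from library to library. Fewer Sertoli cells (or less of their RNA) in a preparation and less of a transcript per Sertoli cell cannot be told apart in such bulk libraries. Nor can Sertoli cell reads be told apart from reads of the same genes made by the sorted cells or by other cells.

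Germ cell transcripts were found in every library. Per length, the germ cell genes *Mael*, *Dazl*, *Ddx4* and *Tdrd1* had medians of 373, 282, 216 and 35.01 RPM per kb of exon (RPM, reads scaled to library depth) over the 12 libraries. The 10 genes of undifferentiated spermatogonia ranged from 1.98 (*Lhx1*) to 77.7 (*Zbtb16*), and *Gfra1*, the gene of the sort, had 56.0. The more abundant Sertoli cell genes lay within the range of these markers. Of the 10 Sertoli cell genes, *Ctsl* had the highest median at 41.8 RPM per kb. It was followed by *Cst12* at 39.6, *Clu* at 19.6, *Aard* at 2.97, *Cldn11* at 2.78, *Wt1* at 1.45, *Kitl* at 0.755, *Dhh* at 0.396 and *Fshr* at 0.109, while the median of *Amh* was 0. The ranges over libraries overlapped for every pair of neighbours in this order. Of the 6 Leydig cell genes, *Star* had reads in 12 of 12 libraries, *Insl3* in 10, *Cyp11a1* in 6, *Hsd3b1* in 4, *Lhcgr* in 2 and *Cyp17a1* in 1, and together they summed to between 6.18 and 47.8 RPM per library.

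The libraries fall into 2 technical sets, seen in earlier results of these data and defined by replicate number, not by the Sertoli cell genes. Set 1 holds replicates 1 to 3 of both groups, with 8403544 to 28767673 reads implied by the values, and even read numbers made up 53.2% to 60.8% of its genes at 1 to 20 reads. Set 2 holds replicates 4 and above, 2 control and 4 cryptorchid libraries, with 3414861 to 5497816 reads and 48.2% to 50.5% at even numbers. The share of reads on the listed genes was 74.5% to 94.0% in set 1 and 94.8% to 99.9% in set 2. Sequencing used 2 instrument models, and which libraries ran on which, or what else distinguished the sets, is not given in the sources used here. Condition and set can be separated, since each set contains both conditions. The digestion temperature of the testes differed between control and cryptorchid samples, and its part cannot be told apart from that of the condition.

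**Figure D1:**
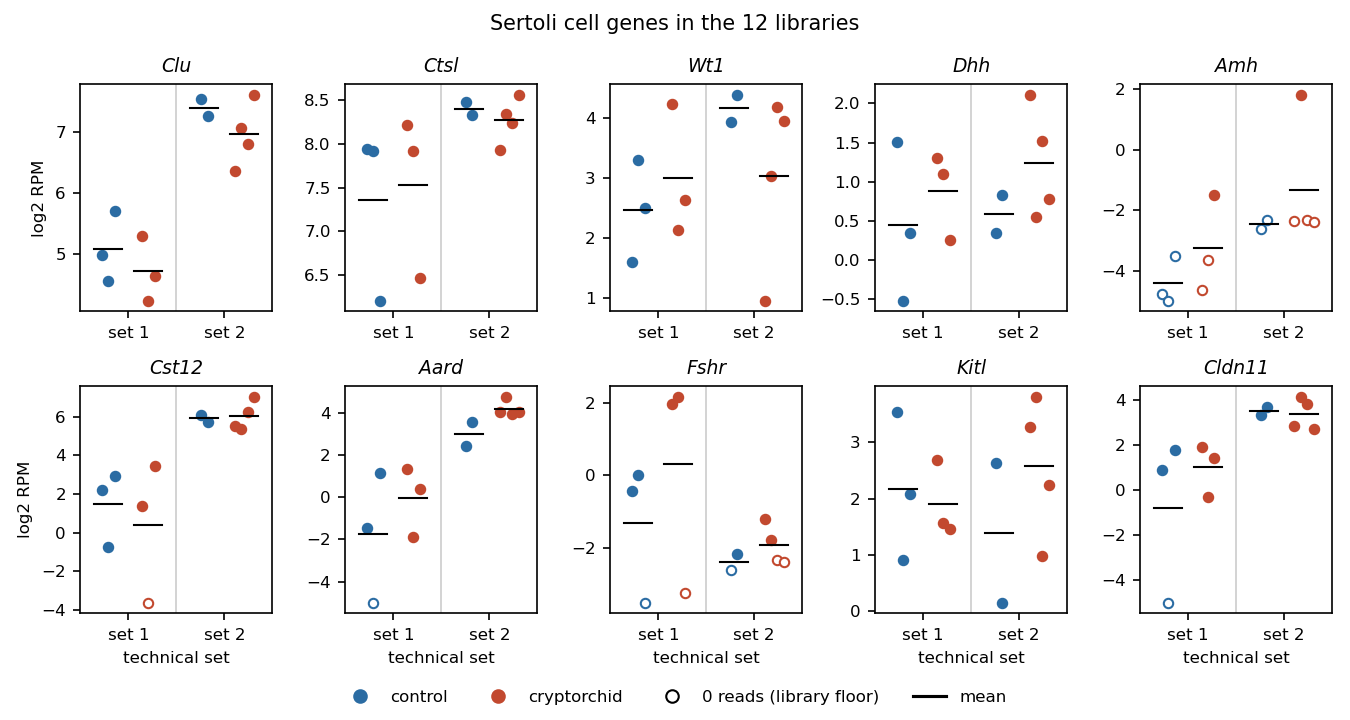
The log2 RPM of each Sertoli cell gene in each of the 12 libraries, with control in blue, cryptorchid in red, technical set 1 on the left and set 2 on the right of each panel. Open circles are libraries with 0 reads, drawn at the floor value of the library, and bars are means. *Clu*, *Cst12*, *Aard* and *Cldn11* do not overlap between the sets, whereas control and cryptorchid overlap for all 10 genes. The share of all genes tested that separate in either way is not given here, so these counts are a description only.

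Between conditions, no Sertoli cell gene passed the call rule. Of the 9 genes that passed the expression filter, 0 were called at 2-fold and *P* under 0.05 in the limma fit. This fit had condition as its only term and covered 16932 genes, of which 5.92% were called. No gene of the 9 had an unadjusted limma *P* under 0.05. Exact two-sided rank sums were taken over the 792 possible assignments of libraries to groups, and no gene of the 10 reached it there. These assignments allow no *P* below 0.00253, and for *Amh* the ranks mostly order the floors of libraries without reads. The median log2 difference of the 9 genes (cryptorchid minus control) was 0.43, beside 0.10 for all genes tested. The mean was higher in cryptorchid libraries for 8 of the 10 genes, but in both technical sets for 4 of them. Both counts include *Amh*, whose values are mostly floors. With a technical set term *Cst12*, among the 8, was -0.51, the only sign that changed among the 9 genes in that fit. The 95% confidence interval of each of the 9 genes reached past 2-fold in at least 1 direction, so changes of that size were not excluded by these data.

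*Wt1* encodes the zinc finger transcription factor that maintains Sertoli cell identity, and lies at chr2:105126529-105173616 on the plus strand of GRCm38. In control libraries it was at 3.04, 9.80 and 5.68 RPM in set 1 and 15.3 and 20.8 RPM in set 2. In cryptorchid libraries it was at 18.7, 4.39 and 6.19 RPM in set 1 and at 1.94, 8.20, 18.01 and 15.4 RPM in set 2. The groups overlapped throughout, and the log2 difference was -0.13 (95% confidence interval -1.48 to 1.22). The library with the lowest level, cryptorchid replicate 4, had 9 reads.

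Among the hormone genes, *Amh*, the anti-Müllerian hormone that Sertoli cells make in quantity before puberty, was close to absent. It had 0 reads in all 5 control libraries and in 5 of 7 cryptorchid libraries, where 0 reads allow up to 0.104 to 0.665 RPM depending on depth. Cryptorchid replicate 3 had 3 reads and cryptorchid replicate 5 had 12 reads. *Amh* (chr10:80805243-80807648) did not pass the filter and has no place in the counts of called genes. Its exact rank sum *P* was 0.202. Libraries with 0 reads were ranked there by their floors, which follow depth, so this *P* does not test the level of *Amh*. Its receptor gene *Amhr2* was detected in every library, at 2 to 191 reads.

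*Fshr*, the receptor for FSH on Sertoli cells (chr17:88984952-89200675, minus strand), had the lowest median per length of the 9 genes that passed the filter. The control libraries had 18, 29 and 0 reads in set 1 and 0 and 1 in set 2, and the cryptorchid libraries had 87, 50 and 0 in set 1 and 2, 1, 0 and 0 in set 2. The 4 libraries with over 2 reads were replicates 1 and 2 of both groups. The log2 difference between conditions was 0.77 (95% confidence interval -1.56 to 3.10), which leaves both a decrease and an increase of over 2-fold within the interval.

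*Kitl* and *Dhh* encode signals that leave the Sertoli cell. *Kitl*, the ligand of KIT on differentiating spermatogonia (chr10:100015630-100100416), was found at 11.6, 1.88, 4.21, 6.18 and 1.11 RPM in control replicates 1 to 5. It ranged from 1.98 to 14.1 RPM with a median of 4.71 RPM in cryptorchid libraries, and the log2 difference was 0.43 (95% confidence interval -1.04 to 1.90). *Dhh*, the hedgehog ligand that acts on Leydig and peritubular myoid cells (chr15:98891152-98898540), was found at 2.83, 0.70, 1.27, 1.27 and 1.77 RPM in control replicates 1 to 5. Its cryptorchid values were 1.19 to 4.32 RPM with a median of 2.15 RPM, and the log2 difference was 0.59 (95% confidence interval -0.79 to 1.97). Neither gene separated the groups. Exons of *Dhh* overlap *Rhebl1* on the same strand and *Gm49442* on the other, so its reads are uncertain.

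*Ctsl* and *Clu* are the abundant secretory genes of the list. *Ctsl* encodes the lysosomal protease cathepsin L, made by many cell types and released by Sertoli cells, and *Clu* encodes clusterin, a major glycoprotein of Sertoli cell fluid that other cells make too. *Ctsl* (chr13:64359337-64370890) held 49.1% to 87.7% of the summed RPM of the 10 genes. It was at 246, 243 and 73.9 RPM in control set 1, at 356 and 321 RPM in control set 2, at 297, 242 and 88.7 RPM in cryptorchid set 1, and at 245, 323, 303 and 377 RPM in cryptorchid set 2. The lowest library of each group was its replicate 3. The log2 difference between conditions was 0.18 (95% confidence interval -0.66 to 1.02), the narrowest interval of the list. Exons of *Ctsl* overlap *Gm47123* on the other strand and *Gm49230* on the same strand, and counting by strand is not stated, so its reads are uncertain.

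*Clu* (chr14:65968483-65981547) separated the technical sets and not the conditions. In set 1 it was at 31.9, 23.6 and 52.2 RPM in control and 39.5, 18.9 and 24.99 RPM in cryptorchid libraries. In set 2 it was at 186 and 153 RPM in control and 82.3, 134, 112 and 195 RPM in cryptorchid libraries. All 6 libraries of set 2 were above all 6 of set 1. The log2 difference between conditions was -0.01 (95% confidence interval -1.29 to 1.27), and that between sets (set 2 minus set 1) was 2.26 (1.67 to 2.86; limma adjusted *P*=0.000688, Benjamini-Hochberg).

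*Cst12* and *Aard* showed the same split on a larger scale. *Cst12*, a cystatin-family gene transcribed in Sertoli cells (chr2:148789361-148793546), had 4.64, 0.59 and 7.54 RPM in control and 2.56, 0 and 10.8 RPM in cryptorchid libraries of set 1. In set 2 it reached 69.1 and 52.7 RPM in control and 46.4, 41.0, 75.3 and 132 RPM in cryptorchid libraries. *Aard*, an alanine- and arginine-rich protein gene known from Sertoli cells of the developing testis (chr15:52040107-52045722), had 0.37, 0 and 2.25 RPM in control and 2.56, 0.27 and 1.31 RPM in cryptorchid libraries of set 1. In set 2 it had 5.46 and 11.7 RPM in control and 16.6, 27.2, 15.2 and 16.7 RPM in cryptorchid libraries. The set differences were 5.16 for *Cst12* and 4.46 for *Aard* on the log2 scale (limma adjusted *P*=0.0061 and adjusted *P*=0.0108, Benjamini-Hochberg). Set 1 libraries without reads enter at their floor, so these values depend on it, and with 1 common floor they were 4.83 and 4.04.

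*Aard* also had the largest difference between conditions, 2.23 on the log2 scale (95% confidence interval -0.67 to 5.13, limma adjusted *P*=0.635). With a technical set term the difference was 1.47 (-0.43 to 3.36). In set 2, *Aard* was higher in 4 of 4 cryptorchid libraries than in the 2 controls. Whether it was called depended on single libraries. Without control replicate 5 the difference was 3.08 (limma adjusted *P*=0.548) and without cryptorchid replicate 2 it was 2.94 (limma adjusted *P*=0.397), both called at 2-fold and an unadjusted *P* under 0.05. Without control replicate 2, which had 0 reads, it was 0.94 and was not called. Within set 2 alone it was 1.20 and called by the same rule (limma adjusted *P*=0.270), and within set 1 alone it was 1.703 and was not called. The exact rank sum *P* of *Aard* was 0.202 over all splits and 0.113 over the 300 assignments that keep the sets apart.

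*Cldn11* encodes claudin 11, the tight junction protein of the blood-testis barrier (chr3:31149920-31164324). It had 1.85, 0 and 3.43 RPM in control and 3.77, 0.81 and 2.74 RPM in cryptorchid libraries of set 1. In set 2 it had 10.2 and 13.1 RPM in control and 7.34, 17.9, 14.3 and 6.64 RPM in cryptorchid libraries, again without overlap between the sets. Its set difference of 3.17 did not pass (limma adjusted *P*=0.0572, Benjamini-Hochberg) with the deposited floors and passed with the common floor at 2.75 (adjusted *P*=0.0245). The log2 difference between conditions was 1.44 (95% confidence interval -1.12 to 3.99), and 0.89 (-1.15 to 2.93) with a technical set term. The value of 1.44 rested on control replicate 2, which had 0 reads in one of the deepest libraries. Without that library the difference was -0.05.

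**Figure D2:**
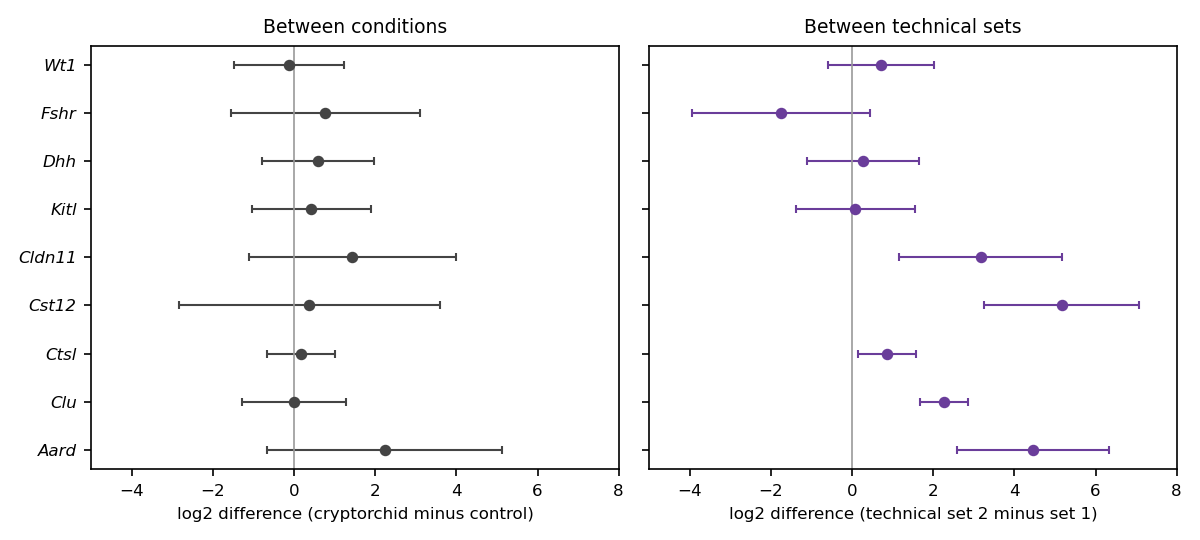
Log2 differences of the 9 genes that passed the filter, with 95% confidence intervals from limma, between conditions (left, cryptorchid minus control) and between technical sets (right, set 2 minus set 1). All 9 intervals on the left cross 0, and those of *Cst12*, *Aard*, *Cldn11*, *Clu* and *Ctsl* on the right do not. The fit on the left had condition as its only term, and that on the right had condition and set.

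In the fit with condition and set, 3 of the 9 genes were higher in set 2 at 2-fold and a Benjamini-Hochberg adjusted limma *P* under 0.05 (*Clu*, *Cst12* and *Aard*) and 0 were lower. Over all genes tested, 4.82% were higher in set 2 and 0.484% were lower. The remaining genes had set differences of 0.86 (*Ctsl*), 0.71 (*Wt1*), 0.27 (*Dhh*), 0.08 (*Kitl*) and -1.76 (*Fshr*), beside a median of 0.31 for all genes. The direction for *Fshr* thus ran against that of the called genes, although its test was not passed (limma adjusted *P*=0.327). For *Clu*, *Cst12*, *Aard* and *Cldn11* the observed assignment of libraries to sets was the most extreme of the 350 that keep the conditions apart (exact rank sum *P*=0.00286, the smallest possible). These 4 genes are those that do not overlap between the sets, so this *P* restates the lack of overlap and is no further support. The condition difference did not differ detectably between the sets for any of the 9 genes, with unadjusted limma *P* of the interaction from 0.198 (*Wt1*) to 0.899 (*Clu*). The summed RPM of *Clu*, *Cst12*, *Aard* and *Cldn11* was 19.98 to 65.4 in set 1 and 153 to 350 in set 2, whereas *Wt1*, *Dhh*, *Fshr* and *Kitl* together made 10.1 to 31.5 RPM in set 1 and 16.4 to 24.0 RPM in set 2. These groups of genes were formed after their values were seen, with *Ctsl* and *Amh* in neither, so this contrast is a description.

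Markers of another cell type moved with the sets as well. The 6 spermatid genes summed to 13.5 to 1104 RPM in set 1 and 113 to 2618 RPM in set 2, 3 of 6 were called higher in set 2, and 2 of 6 were called lower in cryptorchid libraries. All 6 had reads in at least 11 of 12 libraries. The 10 genes of undifferentiated spermatogonia summed to 622 to 878 RPM in set 1 and 718 to 1088 RPM in set 2, with 0 of 10 called between sets. Of the remaining lists, 1 of 6 spermatocyte genes was called higher in set 2. Between conditions, 1 of 5 differentiating spermatogonia genes, 1 of 4 myoid, 2 of 5 endothelial and 1 of 2 T cell genes tested were called higher. The T cell list held 5 genes, of which only 2 passed the filter. Over all genes tested 5.92% were called between conditions, and such counts from lists this short are no result about a cell type. For Leydig cells, macrophages and general germ cell genes there was no call between conditions or sets. The part of depth, amplification and spermatid RNA in the set differences of the Sertoli cell genes was not tested.

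**Figure D3:**
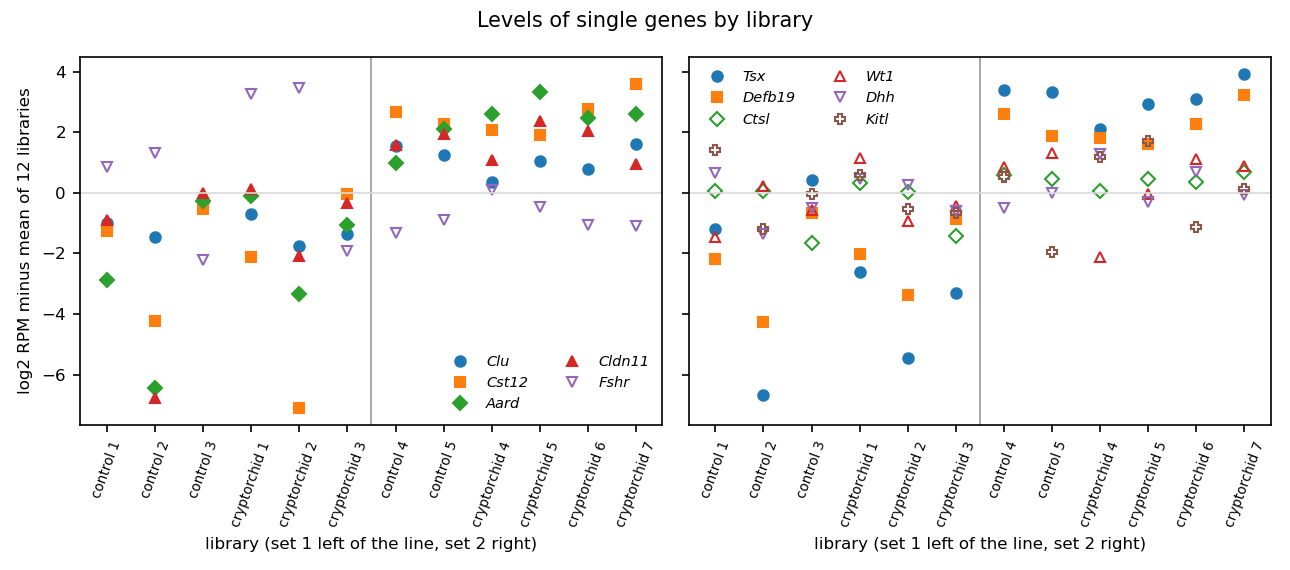
Log2 RPM of single genes in each library after subtracting the mean of the gene over the 12 libraries (y axis), with set 1 left and set 2 right of the vertical line. On the left, *Clu*, *Cst12*, *Aard* and *Cldn11* (filled) are above 0 in all libraries of set 2 while *Fshr* (open) is highest in cryptorchid replicates 1 and 2. On the right, *Tsx* and *Defb19* (filled) follow the first 4 genes, whereas *Ctsl*, *Wt1*, *Dhh* and *Kitl* (open) overlap between the sets.

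Whether the genes moved together was asked over the 45 pairs of the 10 genes. Over all 12 libraries the median of Pearson's *r* was 0.252 (Spearman's rho 0.287), and 36 of 45 pairs were positive. Libraries without reads entered these values at their own floors, which follow depth, and *Amh* had reads in only 2 libraries. With 1 common floor the median *r* was 0.228. For the 9 genes that passed the filter, 29 of 36 pairs (80.6%) were positive with a median *r* of 0.254, beside 55.9% and 0.0631 for all pairs of the 16932 genes tested. With the common floor the 9 genes had 29 of 36 and 0.279, beside 55.3% and 0.0558 for all pairs. Because *Clu*, *Cst12*, *Aard* and *Cldn11* do not overlap between the sets, the pooled *r* of their pairs largely restates that difference, and the values within sets of 6 libraries are given instead, with 1 common floor for genes without reads.

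Within set 1, the 6 pairs among *Clu*, *Cst12*, *Aard* and *Cldn11* had *r* of 0.648 to 0.8503 and rho of 0.543 to 1. The lowest exact permutation *P* of *r* among them was 0.0181 (*Aard* and *Cldn11*, *r*=0.8503), and after adjustment over the 45 pairs none passed (lowest adjusted *P*=0.711 for *r* and 0.125 for rho). The 0.125 belongs to *Aard* and *Cldn11* at a rho of 1, so even a perfect rank order did not pass. Control replicate 2 and cryptorchid replicate 2 were the 2 lowest libraries of set 1 for each of the 4 genes. Leaving out these 2 libraries, the farthest from the median of *Cst12*, brought its *r* with *Aard* and *Cldn11* to -0.0758 and -0.183, so these relations rested on them. For *Clu*, the farthest from the median were control replicate 3 and cryptorchid replicate 2, without which its *r* was 0.155 with *Cst12*, 0.584 with *Aard* and 0.673 with *Cldn11*, so that with *Cst12* rested on those libraries. For *Aard* they were control replicate 3 and cryptorchid replicate 1, without which its *r* with *Cldn11* was 0.757.

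Within set 2 the same 6 pairs ranged from -0.544 to 0.581, and 2 of 6 were positive. In that set *Clu* went with *Ctsl* instead (*r*=0.974, rho 0.943, exact *P*=0.00278 for *r*, adjusted *P*=0.125), a pair that was at -0.372 in set 1. *Dhh* and *Kitl*, the signals, were related in set 1 (*r*=0.826, exact *P*=0.0333, adjusted *P*=0.711) and at -0.0169 in set 2. *Fshr* ran against *Cst12* in both sets, at -0.761 and -0.493, the latter over 6 libraries with at most 2 reads of *Fshr*. The most negative pair of set 2, *Wt1* and *Fshr* at -0.984, rests on the same few reads. No pair of the 45 passed adjustment within either set. With 6 libraries the smallest exact *P* reached, 0.00278, became 0.125 after adjustment over the 45 pairs. A single pair could therefore not pass, and the lack of one does not show that the genes were unrelated. Over the 36 pairs of genes that passed the filter the median *r* was 0.229 in set 1 and -0.168 in set 2, beside 0.0501 and 0 for all pairs of genes tested, and 25 and 14 of the 36 pairs were positive.

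**Figure D4:**
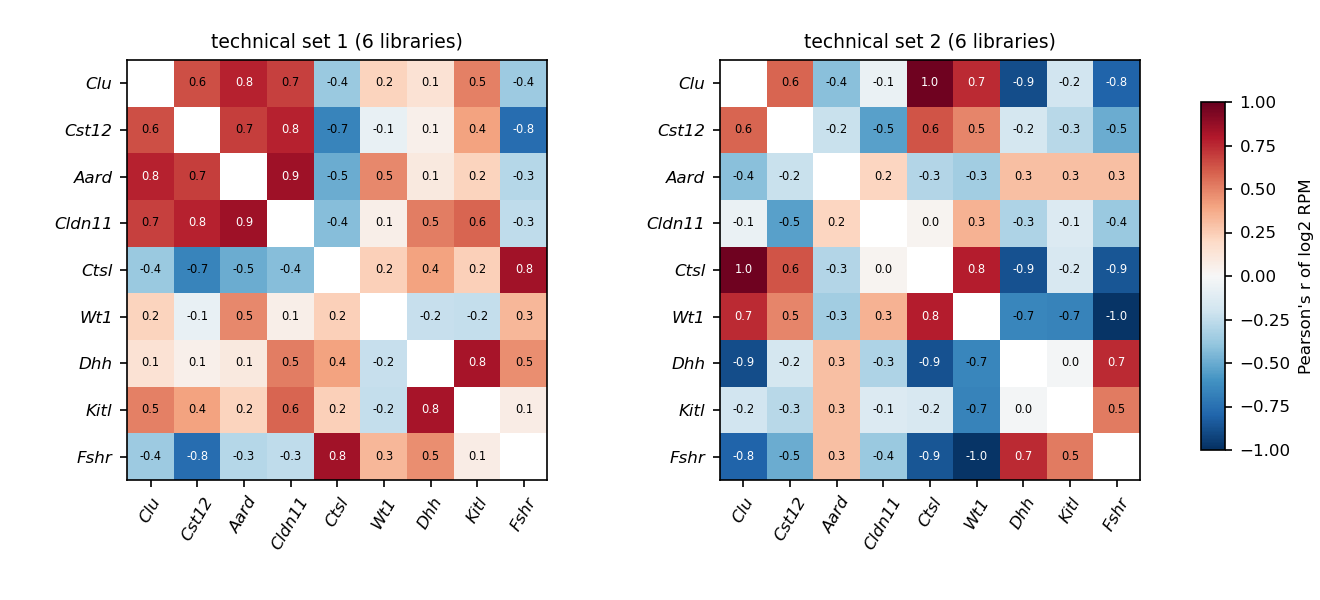
Pearson's *r* of log2 RPM (common floor) for each pair of the 9 genes that passed the filter, in the 6 libraries of technical set 1 (left) and of set 2 (right), with red positive and blue negative. The block of *Clu*, *Cst12*, *Aard* and *Cldn11* is red throughout in set 1, at 0.648 and above, and mixed in set 2. *Amh* is left out because it had reads in 2 libraries only.

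Promoter sequences were available for 6 of the 10 genes. Those of *Cst12* and *Cldn11*, which moved together between sets, and of *Fshr*, which did not, are shown as the 250 bases before the RefSeq transcription start, 5′ to 3′ on the strand of the gene (GRCm38.p6), with matches to the motifs named next in capitals.
Cst12, chr2:148789115-148789364, plus strand: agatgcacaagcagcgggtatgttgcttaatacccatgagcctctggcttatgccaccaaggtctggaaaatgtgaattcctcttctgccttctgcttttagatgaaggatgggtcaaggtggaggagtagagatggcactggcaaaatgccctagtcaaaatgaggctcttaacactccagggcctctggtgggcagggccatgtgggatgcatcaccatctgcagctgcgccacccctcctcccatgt
Cldn11, chr3:31149670-31149919, plus strand: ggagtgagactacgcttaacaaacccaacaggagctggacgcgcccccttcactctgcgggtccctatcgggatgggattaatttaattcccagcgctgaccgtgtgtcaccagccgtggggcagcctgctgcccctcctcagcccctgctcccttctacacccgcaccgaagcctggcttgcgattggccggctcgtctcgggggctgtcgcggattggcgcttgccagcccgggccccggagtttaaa
Fshr, chr17:89200676-89200925, minus strand: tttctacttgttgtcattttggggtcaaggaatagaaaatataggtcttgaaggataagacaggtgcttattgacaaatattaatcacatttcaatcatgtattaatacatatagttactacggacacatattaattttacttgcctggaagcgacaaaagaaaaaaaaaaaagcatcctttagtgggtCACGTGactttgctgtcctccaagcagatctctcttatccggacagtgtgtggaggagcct
The motifs were searched on both strands. The site of the nuclear receptor NR5A1 was written AAGGTCA. For the zinc finger factors of the GATA family the letters were AGATAA. For the SOX family they were ACAATG. The E-box was searched only in the form CACGTG, which reads the same on both strands, so its other forms are not marked. The motif shared by WT1 and EGR factors was GCGTGGGCG. The single match in these 3 windows was the CACGTG of *Fshr*, 61 to 56 bases before the start. Of the 32851 mouse promoter windows of this length, 6.02% hold CACGTG, 10.7% the SOX motif, 9.99% the GATA motif, 4.08% the NR5A1 motif and 0.536% the WT1 and EGR motif. Among the other 3 windows, that of *Ctsl* held 1 CACGTG and 1 SOX motif, and those of *Dhh* and *Kitl* held none of the 5. The bases before *Cldn11* were 63.6% G or C, those before *Cst12* 52.8% and those before *Fshr* 36.8%.

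The other genes of the Sertoli cell list, 18 genes chosen with earlier results known, were read in the same way. Of the 17 that passed the filter (*Gdnf* did not, with reads in 3 of 12 libraries), 1 was called between conditions, *Gata1*, a share near the 5.92% of all genes tested and so no result about the list. In set 2, 6 were called higher, beside 4.82% of all genes. The medians were 0.24 and 2.37 on the log2 scale. *Gata1*, a transcription factor gene of Sertoli and blood cells, had 0.53, 1.67, 0.49, 0.36 and 0.89 RPM in control replicates 1 to 5 and 0.63 to 7.61 RPM with a median of 4.102 RPM in cryptorchid libraries. The groups overlapped. The difference was 2.15 on the log2 scale (95% confidence interval 0.50 to 3.81; limma adjusted *P*=0.399). It was not called with the replicate number as a block in replicates 1 to 5 (1.74, adjusted *P*=0.262), in the same replicates without the block (1.74, adjusted *P*=0.637), with voom on the recovered reads (1.56) or within set 1 alone (0.70), and it was 3.37 and called within set 2 alone.

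The 6 other Sertoli cell genes higher in set 2 were *Tsx*, a testis-specific X-linked gene (6.41), the cystatin gene *Cst9* (6.19), the homeobox genes *Rhox8* (5.84) and *Rhox5* (2.37), the inhibin subunit gene *Inha* (3.31) and the β-defensin gene *Defb36* (2.99). *Tsx*, *Cst9* and *Rhox8* had few or no reads in some set 1 libraries, so the size of their differences depends on the floors, which follow depth. For *Tsx*, set 1 had 1.56, 0.03 and 4.70 RPM in control and 0.58, 0 and 0.36 RPM in cryptorchid libraries. In set 2 *Tsx* had 37.3 and 35.4 RPM in control and 15.1, 26.9, 30.3 and 53.8 RPM in cryptorchid libraries, without overlap. *Gata4* and *Gata6*, the genes that served as Sertoli cell markers in the qRT-PCR of the study, did not follow. Their set differences were 0.06 and 0.68, and their condition differences were -0.33 (95% confidence interval -1.43 to 0.77) and 0.85 (-0.76 to 2.46). *Sox9*, which drives Sertoli cell fate, had a set difference of 0.34. The genes not called were mixed, so these examples do not stand for the Sertoli cell regulators as a group. *Sox8* had a set difference of 3.12, *Mro* 2.87, *Nr0b1* 2.47, *Gata1* 1.15, *Espn* 0.79, *Inhbb* 0.40 and *Trf* -0.54 (lowest limma adjusted *P*=0.0673, *Sox8*).

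**Figure D5:**
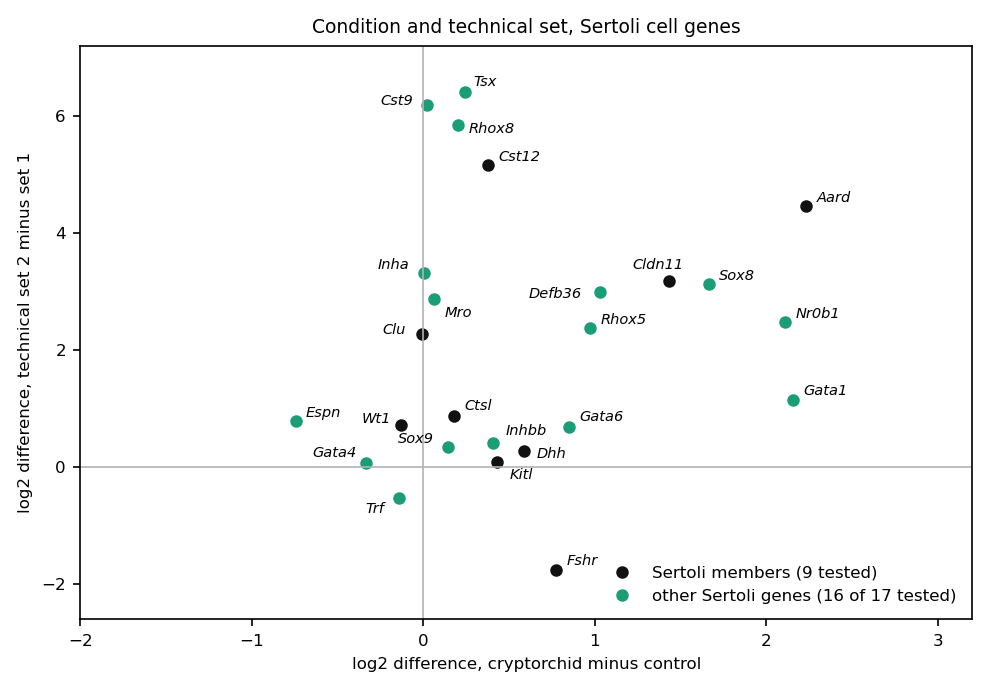
Log2 difference between technical sets (y axis) against that between conditions (x axis) for the 9 Sertoli cell genes tested (black) and 16 of the 17 other Sertoli cell genes tested (green). The spread along the y axis, from -1.76 (*Fshr*) to 6.41 (*Tsx*), exceeds that along the x axis, from -0.75 (*Espn*) to 2.23 (*Aard*). Condition differences come from the fit without a set term, and set differences from the fit with condition and set. Both fits use the deposited floors, so the values of genes with libraries without reads depend on depth.

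Of the 8 genes that receive Sertoli cell signals, 0 were called between conditions, with intervals that were wide for some. The hedgehog pathway genes *Hhip* and *Gli1* had log2 differences of 1.89 (95% confidence interval -0.38 to 4.16) and 1.07 (-0.74 to 2.89), and *Amhr2* had -0.70 (-3.02 to 1.62). *Kit*, the receptor for KIT ligand, had a log2 difference of 0.45 (95% confidence interval -0.30 to 1.21), and *Gfra1* and *Ret*, the coreceptors for GDNF, had 0.52 and 0.23. *Ptch1*, the hedgehog receptor and target, was at 60.6, 72.5, 62.9, 60.2 and 64.0 RPM in control and at 29.0 to 65.9 RPM with a median of 37.8 RPM in cryptorchid libraries. Its difference of -0.63 (95% confidence interval -1.19 to -0.07; limma adjusted *P*=0.471) is under 2-fold. *Amhr2* was the 1 partner gene called between sets, 3.72 higher in set 2 on the log2 scale (limma adjusted *P*=0.0061, Benjamini-Hochberg), while *Amh* itself had reads in 2 of 12 libraries.

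The genes most like the 10 Sertoli cell genes, by mean Pearson's *r* over the 12 libraries, were *Commd8* (0.538), *Zfp971* (0.535), *Aldh1a1* (0.531), *Aldh6a1* (0.530), *Capn6* (0.529) and *Syn1* (0.525). The members themselves had mean *r* with the 9 others between -0.239 (*Fshr*) and 0.449 (*Aard*). Against *Clu*, *Cst12*, *Aard* and *Cldn11* alone, a choice made after their values were seen, the nearest genes were *Etd* (mean *r* 0.915), *Tsx* (0.911), the β-defensin gene *Defb19* (0.910), *1700018G05Rik* (0.904), *Dcaf6* (0.902) and the cystatin-like gene *Cstdc1* (0.9004). These values pool both sets, use the deposited floors and are a description. Of the 17 other Sertoli cell genes tested, *Tsx* was rank 2 of 16928 genes in this order, *Defb36* was rank 68 and *Rhox8* was rank 112, whereas *Gata4* was rank 13119 and the transferrin gene *Trf* was rank 15639.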

How the data were processed

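RNA was measured in 12 Smart-seq2 libraries, grouped by their sample titles. The authors trimmed reads with Trim Galore 0.6.6 and mapped them to mm10 with HISAT2 2.1.0 (versions from the submitters' processing notes), used SeqMonk to count them per protein-coding gene, and the deposited table holds the log2 RPM that resulted. The counting strand is not given in the sources used here. Smart-seq2 reads carry no molecular identifiers, so floors and intervals on reads cover counting error only.

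From these values, reads were recovered by taking the lowest value of each library as 0.9 reads, which made 100% of values under 1000 reads whole within 0.02. Genes whose mean RPM exceeded -1 on the log2 scale were tested with limma 3.58.1 (lmFit, eBayes with trend) in R 4.3.3, and the call rule was a 2-fold change with *P* under 0.05 before adjustment (two-sided), after the study's limits. The authors used edgeR, and limma was used here because the deposited values are on a log scale. Condition differences come from a fit with condition as the only term unless another setting is named. Technical sets were compared in a second fit with condition and set as terms, at 2-fold and a Benjamini-Hochberg adjusted *P* under 0.05. Single genes were tested by exact rank sums, and pairs by permutation (100000 resamples over 12 libraries, all orders within sets). Python 3.11.15, numpy 2.4.6, pandas 2.3.3, scipy 1.17.1 and matplotlib 3.10.9 were used. Gene positions and exon lengths are those of GENCODE vM21, and promoters those of RefSeq. The limma step was tested on simulated data.

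No 2 libraries of a group agreed within sampling noise (chi-square per degree of freedom 13.5 to 264 over 31 pairs). Control and cryptorchid libraries share replicate numbers 1 to 5, and deviations of same-numbered libraries from their group means correlated at 0.332, 0.341, 0.410, 0.319 and 0.184. They are therefore treated as paired in an alternative fit with the number as a block. These correlations include the difference between technical sets. For 4 of 5 numbers the best correlation was with the library of the same number. Alternatives were other scalings, floors, filters, sample weights, voom on recovered reads, a set term, each set alone and each library left out, of which the common floor, the set coefficient and the unblocked fit of replicates 1 to 5 were chosen after seeing the data.

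The genes and lists were chosen with earlier results of these data known. Named are the 10 genes, the other Sertoli cell and partner genes called between conditions, *Gata4*, *Gata6*, *Kit*, *Gfra1*, *Ret*, *Ptch1*, *Amhr2* and the 6 genes most alike, while those named for the technical sets or for likeness to 4 of the genes were chosen after their values were seen. Markers were grouped into 13 lists, and 1 gene of the other Sertoli cell genes is counted but not reported singly here.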

Additional observations from a re-analysis of the deposited data

Results flagged for a closer look

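*Ctsl* was low in replicate 3 of both groups. Control replicate 3 was at 6.21 log2 RPM, far below the other 4 control libraries, and cryptorchid replicate 3 was at 6.47 log2 RPM, far below the other 6 cryptorchid libraries. Both were picked out by Dixon's criterion for a single outlying library at the 95% level. Of 20 gene and group combinations examined, 2 were picked out, and chance alone picks out about 1 in 20. *Clu* was not low in control replicate 3, where it was the highest of set 1 at 52.2 RPM. The reason was not tested.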

How the results depend on the processing

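The median log2 difference of the 9 genes (0.43) moved by less than the spread between libraries (SD 0.84) in 28 of 28 alternatives. That spread exceeds the difference itself. A loss of the whole difference would have passed too, so the count does not show that the difference is stable. The count of the 9 genes called between conditions was 0 and rose to 1 (*Aard*) with replicates 4 and above alone. Of all 16932 genes tested, 635 were called higher and 705 lower in that setting, so 1 call among 9 genes is no result about them. The count of the 9 genes ranged from 0 to 1 when each library was left out (1 without control replicate 5 or cryptorchid replicate 2). The count of the other Sertoli cell genes called was 1, and ranged from 1 to 2 when each library was left out (2 without control replicate 4, control replicate 5 or cryptorchid replicate 3, *Nr0b1* being the addition). Median centring also added *Nr0b1*, voom called *Nr0b1* in place of *Gata1*, and replicates 4 and above alone called *Gata1* and *Inha*, the latter lower in cryptorchid libraries of set 2 (mean 3.07 against 4.32 log2 RPM). Calls between technical sets stayed at 3 to 4 of the 9 genes and 5 to 7 of the other Sertoli cell genes. The median *r* over 45 pairs (0.252) was 0.163 for deviations within groups and sets (0.132 with the common floor), 0.104 after median centring, -0.14 in set 2 alone with the common floor and 0.197 to 0.284 with each library left out.

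With the replicate number as a block, pairing control and cryptorchid libraries 1 to 5, the count of other Sertoli cell genes called was 0. This fit also lacks cryptorchid replicates 6 and 7, and *Gata1* was not called in replicates 1 to 5 without a block either, so its loss is not particular to the block. The difference was -0.00072 for *Ctsl* and -0.83 for *Cst12*, the same as for replicates 1 to 5 without a block, and it was -0.49 for *Clu*, with an unadjusted *P* just under 0.05 at less than 2-fold. No other call of the Sertoli cell genes changed under the block.

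Some differences changed sign, among them that of *Cldn11* (1.44). *Ctsl* was -0.044 with array weights and -0.13 in replicates 4 and above alone. *Wt1* was 0.32 with voom and 0.53 in replicates 1 to 3 alone. *Cst12* was -0.51 with a technical set term (-0.21 with the common floor) and -1.07 in replicates 1 to 3 alone. *Kitl* was -0.27 in replicates 1 to 3 alone, and *Cldn11* was -0.13 in replicates 4 and above alone. With each library left out, *Clu* ranged from -0.37 to 0.37, *Ctsl* from -0.21 to 0.43, *Wt1* from -0.51 to 0.21, *Cst12* from -0.62 to 1.59 and *Cldn11* from -0.0505 to 2.13. The causes were not tested.

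Over all genes, 603 were called higher and 399 lower. The split was 532 and 501 after median centring and 457 and 542 after quantile normalization. It was 785 and 893 with the block, 882 and 703 with array weights and 287 and 345 in replicates 1 to 3 alone. Depth limits *Amh*, *Fshr* and *Dhh* most, with 0 to 12, 0 to 87 and 5 to 69 reads per library.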
